A study of Homo sapiens with 12 samples.

Results

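The guanylate-binding proteins GBP1, GBP2, GBP3, GBP4 and GBP5 were followed in the transcriptome of HT-29, an established human colorectal adenocarcinoma cell line. The 5 genes were taken by symbol from the 19128 symbols of a gene-level table of 8 libraries, where each of them has 1 line, and by their RefSeq transcripts from transcript lists of 4 further libraries. They were chosen by their FPKM (fragment counts scaled by transcript length and library size) in these 12 libraries, which were known beforehand, so their levels and differences are a description: they are given with SD or SE and without p-values. A filter on low values (at least 1 FPKM as the mean of a group) left 10364 genes, among them GBP1 to GBP4. GBP4 passed only through its 2 treated groups, and GBP5 did not pass.

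TBZ is the mix of 20 ng/mL TNFα, 2 µM BV6 and 30 µM zVAD-fmk. BV6 removes inhibitor of apoptosis proteins and zVAD-fmk is a caspase inhibitor, so the mix directs TNF signalling towards necroptosis, the lytic death carried out by the pseudokinase MLKL. The table holds 4 groups of 2 libraries. The control line carries an shRNA to GFP (shGFP) and the other line an shRNA to MLKL brought in by lentivirus (shMLKL), and either line was sampled with DMSO alone and at 5 h of TBZ. The transcript lists hold 1 library each of parental cells under DMSO, parental cells after 4 h of TBZ, shMLKL cells under DMSO and shMLKL cells after 12 h of TBZ. Whether an shRNA line is 1 clone or a pool, and whether the libraries of a group came from separate cultures, is not given in the sources used here, so the spread behind each p-value is that between these libraries and may be technical. The deposited values carry no read counts, so the depth is unknown. These are bulk libraries, in which fewer cells of a type and less RNA per cell cannot be told apart.

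GBPs are large GTPases of the dynamin superfamily that interferons induce strongly in many cell types, epithelium included. Interferon-γ acts through its receptor and the kinases JAK1 and JAK2, and the factor IRF1 is among the genes it induces. IRF1 and other IRF-family factors bind interferon-stimulated response elements (ISRE), GAS elements are a separate class of interferon-γ-responsive element, and TNF can add to GBP induction through NF-κB and IRF1. GBP1 starts a protein coat on cytosolic Gram-negative bacteria, GBP2, GBP3 and GBP4 join that coat, and on it the lipopolysaccharide sensor caspase-4 is recruited and activated. GBP1, GBP2 and GBP5 carry a CaaX tail that is prenylated, which lets them hold on to membranes.

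The 5 genes lie on the reverse strand of hg19 chromosome 1 within 266 kb and in the order GBP3 (89472360 to 89488549), GBP1 (89517987 to 89531043), GBP2 (89571816 to 89591842), GBP4 (89646831 to 89664633) and GBP5 (89724634 to 89738544), with GBP7 between GBP2 and GBP4. The RefSeq transcripts of GBP1 to GBP4 have 11 exons each, and GBP5 has 1 with 11 and 1 with 12 exons. RefSeq promoters on GRCh38.p14 were matched for GBP1, GBP3 and GBP4. No promoter was matched for GBP2, which also stood higher under TBZ, or for GBP5. The 3 windows are shown because they hold the same kind of interferon element, so its presence in each is part of the choice. All are on the reverse strand of chromosome 1, read 5′ to 3′ from 250 bases before the start of the gene, and end at the last base before the start or at the end of the element. Capitals mark the match to the ISRE motif.
GBP1 (chr1:89065209-89065458): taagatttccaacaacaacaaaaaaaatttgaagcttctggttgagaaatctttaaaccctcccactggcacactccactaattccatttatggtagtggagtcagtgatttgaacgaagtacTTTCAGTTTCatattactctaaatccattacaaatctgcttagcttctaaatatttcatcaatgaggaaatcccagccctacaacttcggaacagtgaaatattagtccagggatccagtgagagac
GBP3 (chr1:89022855-89023116): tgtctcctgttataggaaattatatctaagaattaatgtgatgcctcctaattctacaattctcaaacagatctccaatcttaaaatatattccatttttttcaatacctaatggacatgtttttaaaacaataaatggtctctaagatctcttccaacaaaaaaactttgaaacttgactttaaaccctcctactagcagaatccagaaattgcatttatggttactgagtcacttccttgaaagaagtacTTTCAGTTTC
GBP4 (chr1:89198937-89199192): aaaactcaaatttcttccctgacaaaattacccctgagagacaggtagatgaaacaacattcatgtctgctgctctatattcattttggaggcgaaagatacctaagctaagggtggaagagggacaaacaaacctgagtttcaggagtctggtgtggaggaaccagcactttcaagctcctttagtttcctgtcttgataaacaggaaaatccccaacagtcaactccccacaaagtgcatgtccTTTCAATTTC
The ISRE motif was searched as GAAA, any 2 bases and GAAA again, on both strands, over 250 bases before and 50 bases after the start. It matched once in each of the 3 windows, in the reverse orientation. Counted from the starts of the GRCh38.p14 promoters, the match begins 127 bases before the start in GBP1, 4 bases before it in GBP4 and 2 bases after it in GBP3. The spacing of the GBP1 and GBP3 starts is not the same there as between the hg19 transcripts above. The position of the match relative to the start therefore depends on the annotation and is not compared between the genes. GBP1 and GBP3 share the same letters, TTTCAGTTTC, and GBP4 has TTTCAATTTC. Of 35116 RefSeq promoters of that length, 3.57% hold a match. Because the windows are shown for the element they hold, nothing is read from the 3 matches beside that share. The GAS motif, TTC, any 3 bases and GAA, matched in the GBP3 window 15 bases before the start (7.66% of promoters hold it), and the κB motif matched in GBP4 45 bases before the start (11.3% of promoters). None of these matches overlaps another. The GBP1 and GBP3 windows could be aligned over 156 columns with 117 identical bases (75.0%). GBP3 with GBP4 gave 26 of 37 columns (70.3%) and GBP1 with GBP4 gave 31 of 48 (64.6%). These shares are of the aligned columns only and are a description. In the transcripts no stretch of 100 bases of 1 GBP recurs in another of the 5.

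Across genes on the log2 scale, Pearson's r was 0.989 to 0.992 between the 2 libraries of a group and 0.928 to 0.967 between groups, and 9606 to 10047 genes reached 1 FPKM in a library. MLKL, the target of the knockdown, was lower in the line with its shRNA: shGFP libraries held 3.95 and 3.89 FPKM without and 1.98 and 2.03 FPKM with TBZ, while shMLKL libraries held 0.606 and 0.545 without and 0.651 and 0.395 with it. Among 12 markers of colon epithelium 10 reached 1 FPKM in a group, with EPCAM at 313 to 393 FPKM and CDX1 and CDX2 at or under 0.208. KRT8 and KRT18, keratins of simple epithelia, were listed at 0 in 7 of the 8 libraries and at 694 and 535 FPKM in shMLKL DMSO library 2. An exact 0 in this table can therefore be a failed estimate, and such a gene is described only as listed at 0. The summed colon markers were 856 to 861 FPKM in shGFP DMSO, 863 to 864 with TBZ, 1108 to 2351 in shMLKL DMSO and 914 to 921 with TBZ. Of 10 tested, 2 rose and 4 fell with TBZ in shGFP and 5 fell in shMLKL. Of 12 leukocyte markers 4 (CD3E, CD3D, MS4A1 and NKG7) were listed at 0 throughout, PTPRC stayed at or under 0.0609 FPKM, and nearly all of the sum (527 to 663 FPKM) was LYZ, which many epithelia also express. Of 3 tested, 2 fell in shGFP and 1 in shMLKL. The 10 fibroblast and endothelium markers summed to 0.0804 to 0.514 FPKM, with none past the filter. Over all genes limma called 56.4% between TBZ and DMSO in shGFP (19.1% higher and 37.3% lower). Of these calls 33.9% were higher, or 44.5% when library medians were set equal, and the median difference of all genes was −0.12 on the log2(FPKM + 1) scale. In shMLKL 37.5% were called (20.0% higher and 17.6% lower). Of these calls 53.2% were higher, but 45.8% with library medians set equal and 47.0% with quantile normalization.

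GBP1 showed the largest difference of the family. In shGFP cells it was at 1.47 and 1.77 FPKM under DMSO and at 39.5 and 41.2 FPKM after 5 h of TBZ, and in shMLKL cells at 0.436 and 0.463 FPKM under DMSO and at 7.14 and 7.51 FPKM under TBZ. The 4 groups did not overlap, and both lines were higher under TBZ. In shGFP the mean moved from 1.62 ± 0.209 to 40.4 ± 1.15 FPKM (SD, n = 2), 24.9-fold on the FPKM scale, which is 3.98 (SE 0.07) as a difference of log2(FPKM + 1), a scale that understates changes of genes near 0. In shMLKL the mean moved from 0.449 ± 0.0195 to 7.33 ± 0.261 FPKM (SD, n = 2), 16.3-fold, or 2.52 (SE 0.07) on the log2 scale. Ordered by that difference over the 10364 genes fitted, GBP1 was number 17 from the top in shGFP and number 27 in shMLKL.

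GBP2 was the second GBP by level in untreated shGFP cells and the one with the smallest difference under TBZ in shMLKL cells. It stood at 5.35 and 4.52 FPKM in shGFP DMSO and at 16.1 and 14.9 FPKM in shGFP TBZ, a 3.14-fold difference of the means (log2 difference 1.48, SE 0.08). In shMLKL it was at 1.29 and 1.43 FPKM under DMSO and at 3.20 and 3.30 FPKM under TBZ, 2.39-fold (log2 difference 0.85, SE 0.08). Again no group overlapped another. The shMLKL cells under TBZ held less GBP2 than the shGFP cells under DMSO.

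GBP3 was the most abundant GBP of untreated cells in both lines. Its levels in shGFP libraries were 7.13 and 7.07 FPKM without and 33.5 and 32.7 FPKM with TBZ, and in shMLKL libraries 10.3 and 10.6 FPKM without and 28.3 and 28.6 FPKM with it. Groups were again separate, and the treated groups were the highest. The means differed 4.66-fold in shGFP (log2 difference 2.07, SE 0.04) and 2.71-fold in shMLKL (log2 difference 1.36, SE 0.04).

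GBP4, the member needed to recruit caspase-4 to the coat, was low without treatment: 0.752 and 0.882 FPKM in shGFP DMSO and 0.365 and 0.335 FPKM in shMLKL DMSO. Under TBZ it reached 3.83 and 4.06 FPKM in shGFP and 3.82 and 3.58 FPKM in shMLKL, so the treated groups lay above the untreated ones and next to each other. The means differed 4.83-fold in shGFP (log2 difference 1.44, SE 0.08) and 10.6-fold in shMLKL (log2 difference 1.80, SE 0.08).

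GBP5, which in other cells acts at the Golgi and against viral envelope proteins, was near 0 in every group. Without TBZ it was listed at 0 and at 0.0162 FPKM in shGFP and at 0 and 0.0235 FPKM in shMLKL. With TBZ it was at 0.124 and 0.0469 FPKM in shGFP and at 0.0531 and 0.0720 FPKM in shMLKL. The treated libraries were the higher ones in both lines, at levels that carry no fold. The relatives GBP6 and GBP7 did not exceed 0.0240 and 0.0898 FPKM. Among GBP1 to GBP4 the libraries under TBZ were all above those under DMSO in both lines, where 26.6% of the 10364 genes did so in shGFP and 34.3% in shMLKL. Because the genes were picked with these values known, nothing is read from that count.

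**Figure D1:**
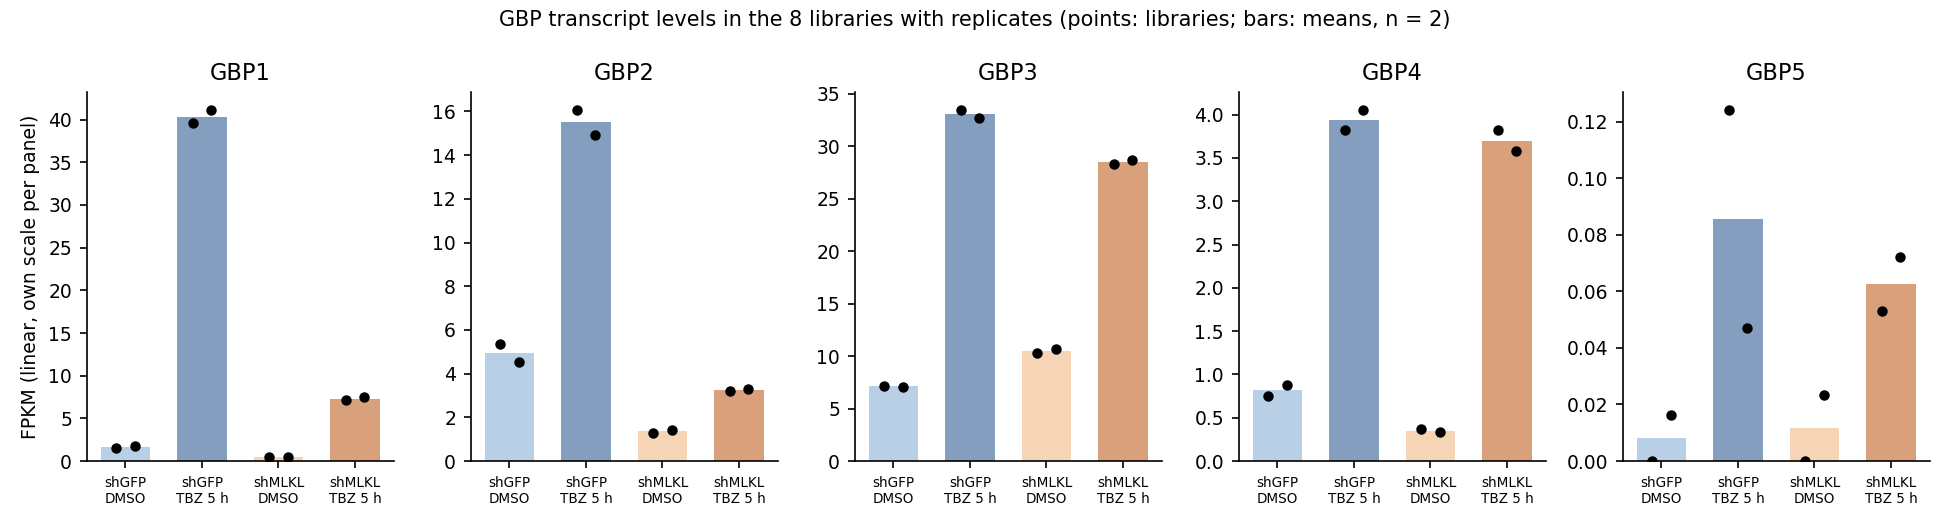
FPKM (y axis, linear, its own scale in each panel) of GBP1 to GBP5 in the 4 groups of the table; points are the 2 libraries of a group and bars their mean. GBP1 ranges from 0.436 to 41.2 FPKM, GBP3 from 7.07 to 33.5, and GBP5 stays at or under 0.124.

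FPKM is a value per length, so the 5 genes can be added up. The family total in shGFP was 14.5 ± 0.313 FPKM without and 93.0 ± 0.119 FPKM with TBZ, and in shMLKL 12.7 ± 0.347 FPKM without and 42.8 ± 0.423 FPKM with it (SD, n = 2). The untreated totals of the lines were close and the treated ones were not. The make-up shifted with treatment. In shGFP, GBP1 moved from 11.2 to 43.4% of the total while GBP2 moved from 34.0 to 16.7% and GBP3 from 49.1 to 35.6%. In shMLKL, GBP3 made up 82.8% of the total under DMSO and 66.5% under TBZ, GBP1 moved from 3.55 to 17.1% and GBP4 from 2.77 to 8.64%. By level the order was GBP3, GBP2, GBP1, GBP4, GBP5 in both untreated groups. It became GBP1, GBP3, GBP2, GBP4, GBP5 in shGFP TBZ, and GBP3, GBP1, GBP4, GBP2, GBP5 in shMLKL TBZ. Neighbours in these orders did not overlap in the 2 libraries of their group.

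**Figure D2:**
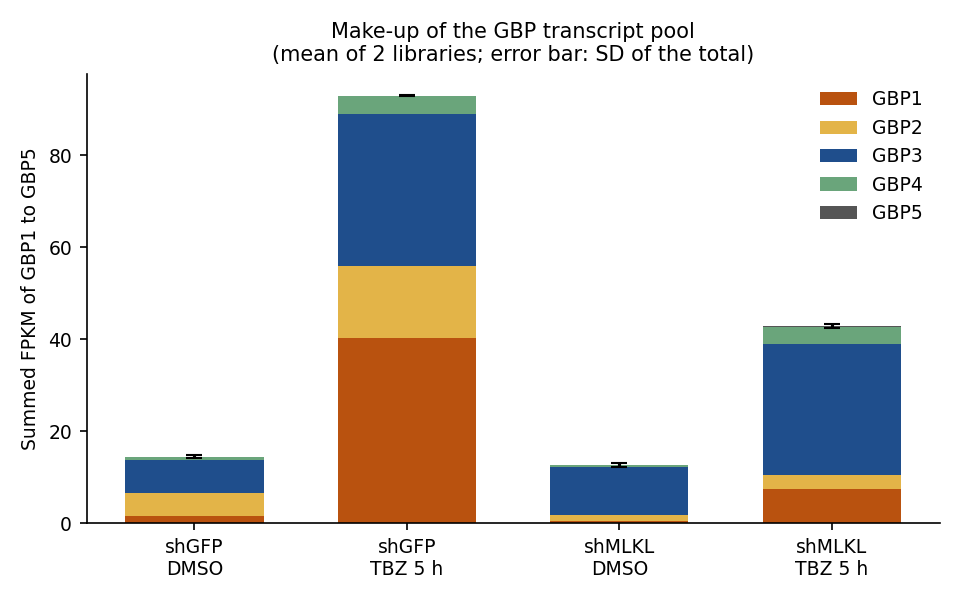
Summed FPKM of GBP1 to GBP5 (y axis, linear) in the 4 groups of the table, stacked by gene as means of 2 libraries; the error bar is the SD of the total. The treated shGFP pool (93.0 FPKM) is mostly GBP1 and GBP3, and the treated shMLKL pool (42.8 FPKM) is mostly GBP3.

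The 2 lines differed in the family before treatment. Under DMSO, GBP1 (log2 difference shMLKL minus shGFP −0.85, SE 0.07), GBP2 (−1.33, SE 0.08) and GBP4 (−0.43, SE 0.08) were lower in shMLKL cells and GBP3 was higher (0.50, SE 0.04). The sizes for the genes with low untreated levels moved with the settings: with an offset of 0.1 in place of 1 GBP1 came to −1.64 and GBP4 to −1.02, and GBP4 came to −0.26 with library medians set equal and −0.15 with quantile normalization. Libraries of the lines did not overlap for any of the 4, a pattern shared by 57.4% of all genes in the lower and 25.3% in the higher direction. Over all genes limma called 63.1% between the lines under DMSO and 51.7% under TBZ. Of these calls 29.04% and 40.0% were higher in shMLKL, or 53.1% and 54.6% with library medians set equal, and the directions given for GBP1, GBP2 and GBP3 held under that scaling and under quantile normalization. Under TBZ, GBP1 was 5.51-fold lower in shMLKL than in shGFP (log2 difference −2.31, SE 0.07) and GBP2 was 4.77-fold lower (−1.96, SE 0.08). GBP3 differed less (−0.21, SE 0.04). For GBP4 the difference was smaller than its SE (−0.07, SE 0.08) and changed sign with library medians set equal (0.0036) and with quantile normalization (0.014). All 4 had both shMLKL libraries below both shGFP libraries under TBZ, as did 45.3% of all genes.

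The TBZ effect itself, compared between the lines (shMLKL minus shGFP), was smaller in shMLKL by −1.46 (SE 0.10) for GBP1, −0.63 (SE 0.12) for GBP2 and −0.71 (SE 0.06) for GBP3, and larger by 0.35 (SE 0.11) for GBP4. These sizes depend on the offset added before the logarithm where the untreated level is low. With 0.1 in place of 1, the value for GBP1 was −0.80, that for GBP2 −0.44 and that for GBP4 0.93, while GBP3 stayed at −0.77. With quantile normalization GBP4 came to 0.17. Each effect was taken against the DMSO group of its own line, and GBP4 started lower in shMLKL and stood next to shGFP after TBZ.

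**Figure D3:**
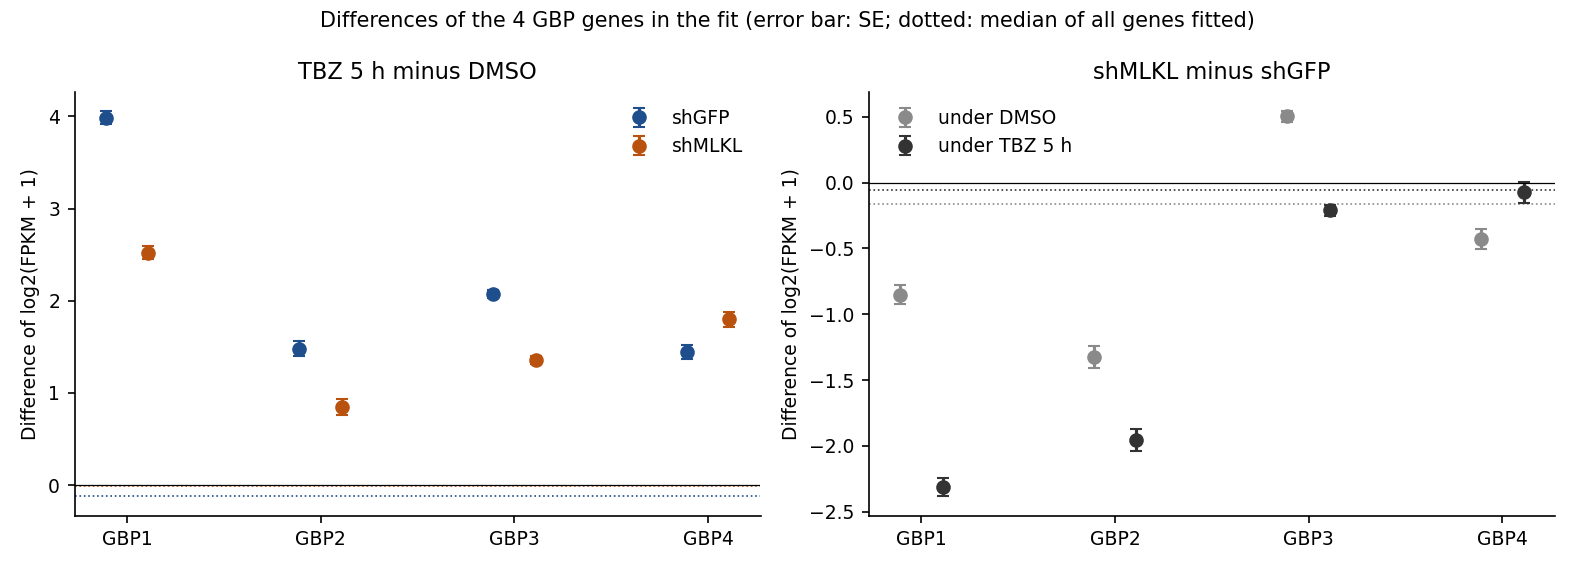
Differences of log2(FPKM + 1) for GBP1 to GBP4 (y axis), TBZ minus DMSO in each line on the left and shMLKL minus shGFP under each condition on the right; error bars are SE and dotted lines the median of all genes fitted. GBP1 has the largest difference under TBZ in both lines (3.98 and 2.52), and GBP4 is the 1 gene of the 4 with the larger value in shMLKL (1.80 against 1.44).

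The 4 single libraries extended the series to other times, without replicates and with values normalized apart from the table. GBP1 was listed at 0 in parental DMSO and in shMLKL DMSO, at 37.6 FPKM (deposited interval 35.6 to 39.5) after 4 h of TBZ in parental cells and at 58.9 FPKM (56.1 to 61.7) after 12 h in shMLKL cells. No fold is given against a listed 0. In both DMSO libraries GBP1 shared its Cufflinks locus with GBP3, and the table gives untreated cells 0.436 to 1.77 FPKM of GBP1. GBP3 was at 12.7 FPKM in parental DMSO and 34.9 after 4 h (2.76-fold), and at 17.1 in shMLKL DMSO and 53.4 after 12 h (3.12-fold).

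GBP4 differed most between these times. It stood at 0.667 FPKM in parental DMSO and 8.24 FPKM after 4 h of TBZ, 12.4-fold, and at 0.531 FPKM (0.435 to 0.626) in shMLKL DMSO and 69.9 FPKM (66.8 to 72.9) after 12 h, 132-fold. In the 12 h library GBP4 was above GBP1 and GBP3, whereas at 5 h in the same line it stood at 3.70 ± 0.173 FPKM (SD, n = 2), below both. By log2 difference it was number 23 of 10394 genes at 12 h and number 245 of 10263 at 4 h. These orders hold genes at 1 FPKM or more in either library of a pair, which GBP4 reached only under TBZ. Of all genes 9.49% were at least 2-fold higher at 4 h and 9.50% at 12 h on the FPKM + 1 scale. Because the GBPs were picked with these values known, nothing is read from the ranks or from GBP4 beside these shares. IRF1 was at 24.4 and 90.5 FPKM in the parental pair and at 17.6 and 102 FPKM in the shMLKL pair. MLKL was at 6.31 and 6.16 FPKM in the parental pair and at 0.854 and 2.14 FPKM in the shMLKL pair, so the 12 h library with the highest GBP4 stood above its own DMSO library in the knockdown target (2.51-fold). The part of this in the GBP4 value was not tested. Line, time and library all differ between the 4 h and 12 h samples and cannot be told apart.

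GBP2 illustrates how the transcript model enters these lists. Its RefSeq form was at 1.40 FPKM in parental DMSO and 13.5 after 4 h (9.64-fold), and at 0.603 in shMLKL DMSO and 13.5 after 12 h (22.4-fold). Both DMSO lists hold in addition an assembled GBP2 transcript, at 5.07 FPKM (4.41 to 5.74) in parental and 4.41 FPKM (3.83 to 4.99) in shMLKL cells. It has 11 exons like the RefSeq form, but its last exon is 42 bases long (89573933 to 89573974) in place of 2159 bases (89571816 to 89573974). The shMLKL DMSO list has a further assembled form at 0.548 FPKM. No assembled form sharing an exon with GBP2 is listed under TBZ. Added together, the forms gave 6.47 and 13.5 FPKM in the parental pair (2.08-fold) and 5.56 and 13.5 FPKM in the shMLKL pair (2.42-fold). The untreated GBP2 level and the fold thus depend on whether assembled forms are counted, and the part of the transcript model in the table's values was not tested.

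**Figure D4:**
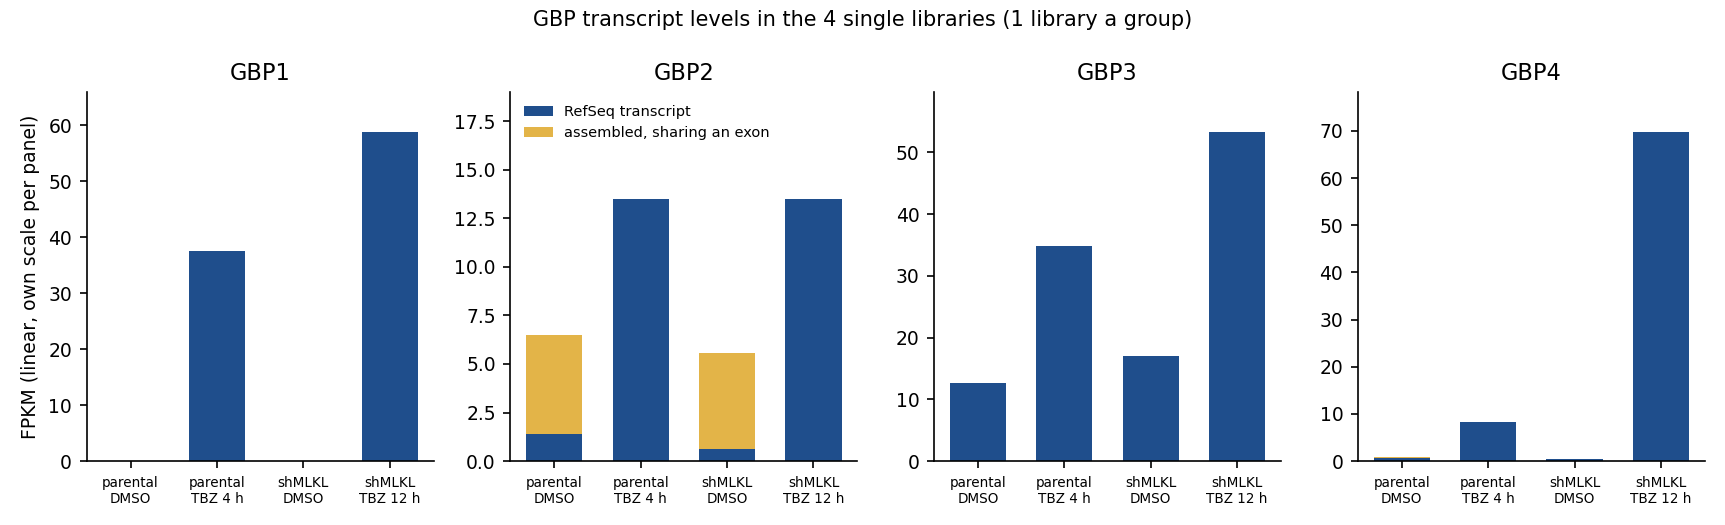
FPKM (y axis, linear, its own scale in each panel) of GBP1 to GBP4 in the 4 single libraries; blue is the RefSeq transcript and yellow the assembled transcripts that share an exon with it. GBP4 reaches 69.9 FPKM at 12 h against 8.24 at 4 h, and most of untreated GBP2 is in assembled forms.

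GBP5 was at or under 0.0228 FPKM in the 4 single libraries and was listed at 0 in both TBZ libraries. In both it stood in a locus joined with GBP1, GBP2 and GBP3, so these zeros can be failed estimates. The 12 h list also holds assembled transcripts of 1 exon on the reverse strand next to GBP5, at 0.538 and 0.422 FPKM. They share no exon with GBP5. In the 4 h library the assembly joined GBP1, GBP2, GBP3 and GBP5 with the neighbours KYAT3 and RBMXL1 into 1 locus, and there KYAT3 and RBMXL1 were listed at 0 (13.5 and 4.73 FPKM in parental DMSO). Of 8623 genes at 1 FPKM or more in the other 3 libraries, 207 were listed at 0 in that library, and the other libraries had 122 to 166 such genes.

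Genes that act upstream of GBPs were examined as lists drawn up with earlier results of these data known, so a list's count is a description beside the shares of all genes called by limma at a Benjamini-Hochberg adjusted p under 0.05, given above. Of the ligands, receptors and signal transducers of interferon, 17 of 24 passed the filter. In shGFP 12 of them rose and none fell (median log2 difference 0.52, against −0.12 over all genes), and in shMLKL 12 rose and none fell (0.51 against 0.00). The receptor chain IFNGR2 rose by 2.35 in shGFP (adjusted p = 1.09e-08) and 2.01 in shMLKL (adjusted p = 3.21e-08). Its partner IFNGR1 rose by 1.69 in shGFP (adjusted p = 3.27e-08) and 1.34 in shMLKL (adjusted p = 2.09e-07), and IFNAR2, a chain of the type I receptor, by 2.25 in shGFP (adjusted p = 3.97e-05) and 2.75 in shMLKL (adjusted p = 2.55e-05). IL10RB, which the type III interferon receptor shares with that of IL-10, rose by 1.43 in shGFP (adjusted p = 3.62e-06) and 1.98 in shMLKL (adjusted p = 1.44e-06). SOCS3, a feedback inhibitor of cytokine receptors, rose by 2.10 in shGFP (adjusted p = 1.05e-06) and 0.46 in shMLKL (adjusted p = 0.00483). Some ligands are named after their values were seen. IFNE passed the filter and had a difference of 0.14 in shGFP (adjusted p = 0.265) and 0.09 in shMLKL (adjusted p = 0.515). IFNB1 did not pass and was at or under 0.178 FPKM in every library. IFNG, the gene of interferon-γ, was listed at 0 in all 8 libraries. IFNL1, a type III interferon of epithelium, was at 0.688 and 0.187 FPKM in shGFP DMSO and at 2.24 and 2.16 FPKM with TBZ, and at 0.477 and 0.812 FPKM in shMLKL DMSO and at 2.34 and 2.90 FPKM with TBZ.

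Of the IRF and NF-κB factors 14 of 17 passed the filter, with 10 higher and 3 lower in shGFP (median 1.02) and 9 higher and 2 lower in shMLKL (median 0.60). IRF1 rose from 6.55 to 37.4 FPKM in shGFP (log2 difference 2.35 (adjusted p = 3.56e-08)) and from 13.3 to 63.0 FPKM in shMLKL (2.16 (adjusted p = 1.29e-07)). Its level was higher in shMLKL than in shGFP under both conditions, while GBP1 and GBP2 were lower under both and GBP3 was higher under DMSO only. The part of IRF1 in the GBP levels was not tested. NFKB2, a subunit of non-canonical NF-κB, rose by 3.04 in shGFP (adjusted p = 8.76e-09) and 3.07 in shMLKL (adjusted p = 1.14e-08) and its partner RELB by 2.43 in shGFP (adjusted p = 3.32e-07) and 2.24 in shMLKL (adjusted p = 1.33e-06). NFKB1, of canonical NF-κB, rose by 2.34 in shGFP (adjusted p = 1.17e-08) and 2.18 in shMLKL (adjusted p = 3.17e-08) and RELA by 0.95 in shGFP (adjusted p = 3.1e-05) and 0.55 in shMLKL (adjusted p = 0.000894).

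Known targets of interferon-γ and IRF1 moved mostly up, with 18 higher and 2 lower of 25 tested in shGFP (median 0.58) and 21 higher and none lower in shMLKL (median 0.81). ICAM1, an adhesion receptor that NF-κB also drives, led in both lines: it rose by 5.92 in shGFP (adjusted p = 1.23e-08) and 5.55 in shMLKL (adjusted p = 3.17e-08), or from 2.24 to 195 FPKM in shGFP. The chemokine CXCL10 rose by 0.64 in shGFP (adjusted p = 0.000342) and 2.02 in shMLKL (adjusted p = 1.67e-06), and the death ligand TNFSF10 by 1.55 in shGFP (adjusted p = 7.04e-07) and 2.65 in shMLKL (adjusted p = 1.29e-07). CD274, the checkpoint ligand, rose by 2.23 in shGFP (adjusted p = 4.45e-05) and 0.96 in shMLKL (adjusted p = 0.00491), and APOL2, of the apolipoprotein L family, by 1.72 in shGFP (adjusted p = 4.4e-06) and 1.37 in shMLKL (adjusted p = 2.98e-05).

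Genes classed as type I interferon-stimulated were mixed in shGFP, where 15 of 33 rose and 7 fell (median 0.14). In shMLKL 21 rose and none fell (median 0.38). Tested directly, the TBZ effects of the lines differed for 19 of the 33, 17 of them larger in shMLKL and 2 smaller, beside 22.3% of all genes (14.6% larger and 7.66% smaller). With library medians set equal 13 were larger and 2 smaller, and with quantile normalization 13 and 3. Under DMSO 25 of the 33 were lower and 2 higher in shMLKL than in shGFP (median −0.56, against −0.16 over all genes). Under TBZ 17 were lower and 9 higher (−0.20 against −0.06). Of all genes 63.1% were called between the lines under DMSO and 51.7% under TBZ. Of these calls 29.04% and 40.0% were higher in shMLKL, or 53.1% and 54.6% with library medians set equal. The type I genes were not counted between the lines under that scaling, so the directions of these counts may depend on it. A larger effect in shMLKL is not by itself a higher level there. XAF1, a pro-apoptotic gene, rose by 0.41 in shGFP (adjusted p = 0.00152) and 1.50 in shMLKL (adjusted p = 3.75e-06), and the RNA-binding effector IFIT3 by 0.22 in shGFP (adjusted p = 0.0455) and 1.34 in shMLKL (adjusted p = 1.67e-05). The IFIT3 call in shGFP was lost under 8 of 16 alternatives (adjusted p from 0.0233 to 0.241 over the 16 alternatives). The RNA sensor IFIH1 rose by 1.41 in shGFP (adjusted p = 1.59e-06) and 1.76 in shMLKL (adjusted p = 1.26e-06). Both genes with the smaller effect in shMLKL are among those named by size: SAMD9, an antiviral gene, rose by 1.08 in shGFP (adjusted p = 2.76e-07) and 0.48 in shMLKL (adjusted p = 3.85e-05) and the exonuclease ISG20 by 1.66 in shGFP (adjusted p = 1.41e-05) and 0.48 in shMLKL (adjusted p = 0.0112). The ISG20 call in shMLKL was lost without shMLKL DMSO replicate 1 or shMLKL TBZ replicate 2 (adjusted p from 0.00711 to 0.0744 over the 16 alternatives). Of GBP1 to GBP4 only GBP4 had a positive difference of effects, and the median over all genes was positive too (0.10). Because GBP4 was picked with its values known, nothing is read from that sign beside the type I genes.

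**Figure D5:**
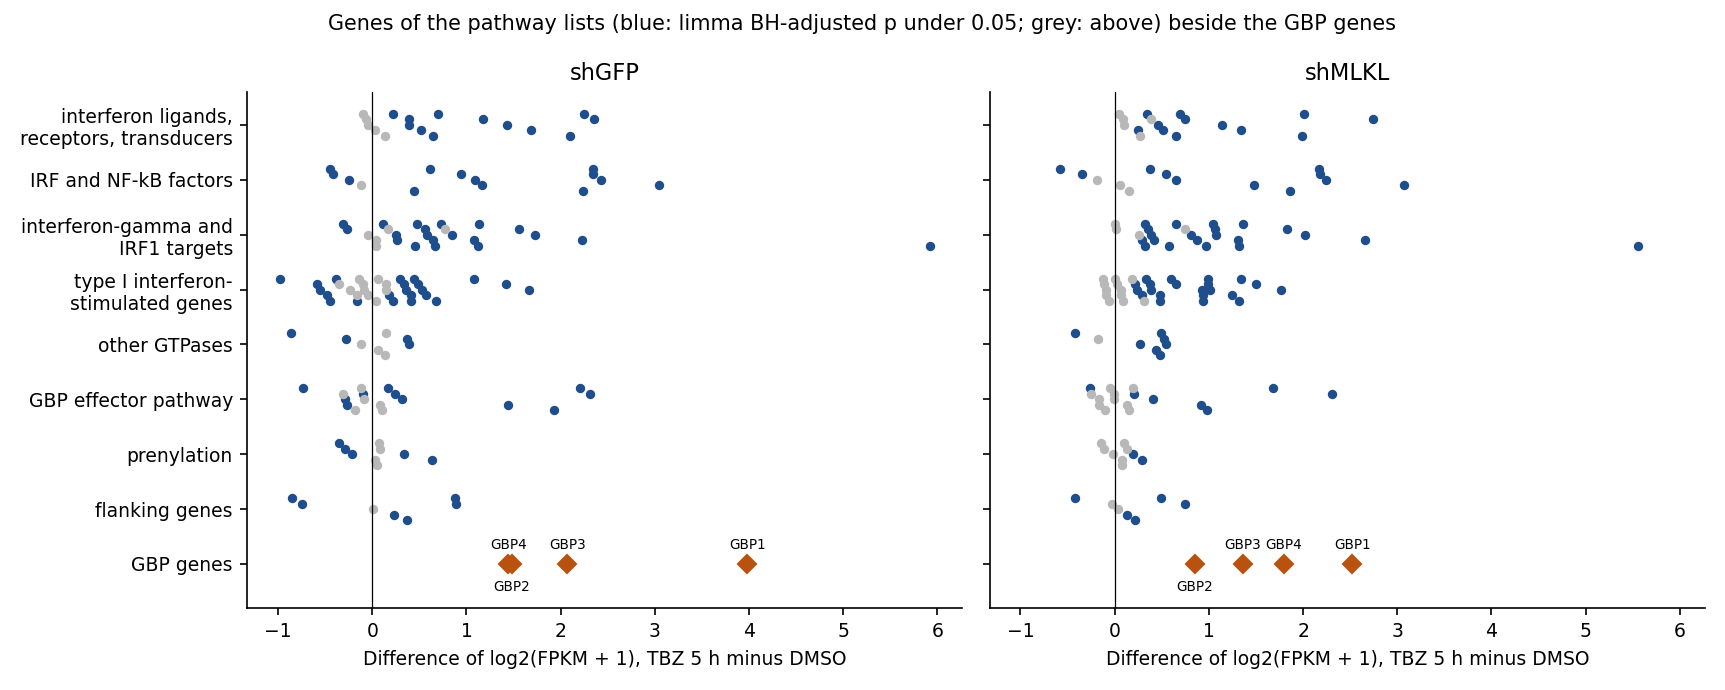
Differences of log2(FPKM + 1), TBZ 5 h minus DMSO (x axis), of the tested genes of 8 lists in shGFP (left) and shMLKL (right), with GBP1 to GBP4 as diamonds; blue points have a limma BH-adjusted p under 0.05 and grey ones do not. In shGFP the called type I genes lie on both sides of 0 (15 higher, 7 lower), and in shMLKL no called one lies below it.

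Of 8 tested GTPases of the dynamin superfamily or of interferon responses, 2 rose and 2 fell in shGFP and 6 rose and 1 fell in shMLKL. DNM1L, which divides mitochondria, rose by 0.39 in shGFP (adjusted p = 0.000102) and 0.48 in shMLKL (adjusted p = 6.12e-05), and IRGQ, an immunity-related GTPase, by 0.37 in shGFP (adjusted p = 0.00335) and 0.52 in shMLKL (adjusted p = 0.000974). MX1, an antiviral dynamin-like GTPase, had a difference of 0.15 in shGFP (adjusted p = 0.203) and 0.49 in shMLKL (adjusted p = 0.00532). ATL3, which shapes the endoplasmic reticulum, fell by 0.86 in shGFP (adjusted p = 1.4e-05) and by 0.43 in shMLKL (adjusted p = 0.000924). RNF213, a ubiquitin ligase that marks bacterial lipopolysaccharide, had a difference of −0.12 in shGFP (adjusted p = 0.118) and 0.54 in shMLKL (adjusted p = 0.000286).

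In a list of GBP effector pathway genes of the inflammasome, pyroptosis and ubiquitin defence, 17 of 24 were tested. Of these 7 were higher and 4 lower in shGFP, and 6 higher and 1 lower in shMLKL. Not all of the list lies downstream of GBPs, as it holds PIM1, which acts on GBP1 itself. SQSTM1, an autophagy receptor, rose by 2.31 in shGFP (adjusted p = 1.83e-08) and 1.68 in shMLKL (adjusted p = 1.77e-07), and NINJ1, which ruptures the plasma membrane late in lytic death, by 2.204 in shGFP (adjusted p = 2.01e-07) and 2.30 in shMLKL (adjusted p = 4.18e-07). PIM1, a kinase that holds GBP1 inactive, rose by 1.93 in shGFP (adjusted p = 2.88e-06) and 0.92 in shMLKL (adjusted p = 0.000269), and TRIM21, a cytosolic antibody receptor, by 0.32 in shGFP (adjusted p = 0.00131) and 0.98 in shMLKL (adjusted p = 7.53e-06). The following are added after their values were seen. CASP4, the caspase that GBP coats recruit, was abundant in each group, at 70.7 and 79.7 FPKM without and with TBZ in shGFP and at 105 and 115 FPKM in shMLKL. Its substrate GSDMD was at 5.68 and 5.30 FPKM in shGFP and at 3.70 and 4.42 FPKM in shMLKL. AIM2 and CASP1 did not exceed 0.0458 and 0.255 FPKM.

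Of 9 tested genes for prenylation and CaaX processing, which the tails of GBP1, GBP2 and GBP5 need, 2 rose and 3 fell in shGFP and 2 rose in shMLKL. RABGGTB, a subunit of the Rab prenyltransferase, rose by 0.63 in shGFP (adjusted p = 4.37e-06) and 0.29 in shMLKL (adjusted p = 0.000442). ICMT, which methylates the cleaved tail, had a difference of −0.36 in shGFP (adjusted p = 0.000413) and 0.08 in shMLKL (adjusted p = 0.193), and RCE1, which cleaves it, one of 0.33 in shGFP (adjusted p = 0.0163) and 0.08 in shMLKL (adjusted p = 0.523). FNTA, the subunit shared by both CaaX prenyltransferases, had a difference of 0.07 in shGFP (adjusted p = 0.293) and 0.20 in shMLKL (adjusted p = 0.026). The RCE1 call in shGFP was lost without shGFP DMSO replicate 2 or shGFP TBZ replicate 1 (adjusted p from 0.00587 to 0.104 over the 16 alternatives), and the FNTA call in shMLKL under 5 of 16 alternatives, among them the fits without shMLKL DMSO replicate 1 and without shMLKL TBZ replicate 2 (adjusted p from 0.0111 to 0.145 over the 16 alternatives).

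The neighbours of the cluster moved in both directions. Of 7 tested, 4 rose and 2 fell in shGFP, where 19.1% of all genes were called higher and 37.3% lower. In shMLKL 4 rose and 1 fell, beside 20.0% and 17.6% of all genes. The 4 that rose in both lines, RBMXL1, GTF2B, PKN2 and LRRC8B, were the tested genes nearest to the cluster on their sides. RBMXL1, which lies next to GBP3, was at 11.8 and 11.9 FPKM in shGFP DMSO and 14.4 and 13.9 FPKM with TBZ, and differed by 0.24 in shGFP (adjusted p = 0.0026) and 0.13 in shMLKL (adjusted p = 0.0444). The call in shMLKL was lost under 12 of 16 alternatives, each left-out library among them (adjusted p from 0.0344 to 0.156 over the 16 alternatives). On the same side GTF2B, a general transcription factor, rose by 0.88 in shGFP (adjusted p = 2.77e-05) and 0.75 in shMLKL (adjusted p = 0.000113), the kinase PKN2 by 0.37 in shGFP (adjusted p = 0.000308) and 0.21 in shMLKL (adjusted p = 0.00712), and the transcriptional adaptor LMO4 had −0.74 in shGFP (adjusted p = 7.49e-06) and 0.04 in shMLKL (adjusted p = 0.52). On the other side LRRC8B, a subunit of volume-regulated anion channels, rose by 0.89 in shGFP (adjusted p = 7.35e-06) and 0.49 in shMLKL (adjusted p = 0.00032), and LRRC8D, another subunit, fell by 0.85 in shGFP (adjusted p = 3.16e-05) and by 0.42 in shMLKL (adjusted p = 0.00191). ZNF326 had differences of 0.01 in shGFP (adjusted p = 0.827) and −0.03 in shMLKL (adjusted p = 0.571). LRRC8C did not pass the filter and BARHL2 was listed at 0.

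The 4 expressed GBPs did not share 1 pattern over the 8 libraries. Pearson's r on the log2 scale was highest for GBP3 with GBP4 (0.92) and GBP1 with GBP4 (0.91), and lowest for GBP2 with GBP3 (0.52) and GBP2 with GBP4 (0.66). The 8 points fall into 4 groups of 2, so r mostly compares 4 group means and is a description. Among the 2047 genes that spanned at least 1 on the log2 scale, the 3 most like GBP1 were BTG2, CXCL1 and EGR1 (r of 0.998 each), an antiproliferative gene, a neutrophil chemokine and an immediate early transcription factor. CXCL1 stood at 6.30 and 207 FPKM without and with TBZ in shGFP and at 3.40 and 26.6 FPKM in shMLKL. The 3 most like GBP2 were TLR4, SRF and ARRDC2 (0.995, 0.994 and 0.991), of which TLR4 is the cell-surface lipopolysaccharide receptor. For GBP3 they were the chemokine CXCL2, the kinase MAP2K3 and the TGF-β transducer SMAD3 (0.999, 0.998 and 0.998). For GBP4 they were TAPBP, VNN1 and TRAFD1 (0.996, 0.996 and 0.995). TAPBP, a peptide-loading factor, stood at 5.49 and 13.2 FPKM without and with TBZ in shGFP and at 4.06 and 11.6 FPKM in shMLKL. The 3 nearest genes differed from member to member.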

How the data were processed

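Poly-A selected RNA was made into libraries with a stranded TruSeq kit and sequenced as 100 nt paired ends, per the labels' protocols. The submitters' processing notes name hg19 and, without role or order, the tools STAR 2.4.0f1, GATK, Cufflinks 2.2.1 and TopHat2 2.0.13. The authors deposited 1 table of 8 libraries, whose header names no unit and whose values were taken as FPKM, and 4 Cufflinks transcript lists with FPKM and its interval. The table has 29437 lines, of which 3300 are exact repeats, and 384 symbols stand on several lines. Of several lines of a symbol the one with the largest mean entered. Each GBP has 1 line.

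The 10364 genes whose mean reached 1 FPKM in some group entered 1 limma model on log2(FPKM + 1) (limma 3.58.1, R 4.3.3) with a mean per group and a trended empirical Bayes spread on 4 residual degrees of freedom. It compared treatments within a line, lines within a treatment, and the TBZ effects of the lines with each other, two-sided. A call is a Benjamini-Hochberg adjusted p under 0.05, adjusted over all genes of the contrast, and the script was tested on simulated data. In the transcript lists the FPKM of a gene's RefSeq transcripts were summed, and with 1 library a group no test was made. Groups and replicate numbers came from sample titles, and the numbers were not used as a block. Promoter motifs were searched on both strands in RefSeq promoters (GRCh38.p14), which matched 3 of the 5 genes, and sequences were aligned with Biopython 1.88.

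The members and gene lists were chosen with earlier results of these data known. The lists are interferon ligands, receptors and transducers, IRF and NF-κB factors, interferon-γ and IRF1 targets, type I interferon-stimulated genes, other GTPases, GBP effectors, prenylation, cluster neighbours, and markers of colon epithelium, leukocytes, and fibroblasts and endothelium. Beside the GBPs with GBP6 and GBP7, MLKL and the flanking genes, the named genes are the regulators IRF1, IFNGR1, RELA and NFKB1 (1 further gene of the rule is not reported here), up to 3 called genes of each list and TBZ contrast with the largest log2 difference and libraries that do not overlap, and the 3 genes with the highest r to each GBP. Alternatives were a pseudocount of 0.1, no filter, a filter at 5 FPKM, library medians set equal, quantile normalization, lines of a symbol summed, a replicate block, only the compared libraries, each library left out and, added after seeing the data, assembled transcripts. Without counts no counting interval can be given.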

Additional observations from a re-analysis of the deposited data

Results flagged for a closer look

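For 31 of the 53 named genes tested beside the GBPs, the difference between the TBZ effects of the lines (shMLKL minus shGFP, log2 scale) passed a limma BH-adjusted p under 0.05. Most of these genes were named for a large TBZ difference or for likeness to a GBP in the same 8 libraries, so nothing is read from their number beside the 22.3% of all genes called. The effect was larger or less negative in shMLKL for CXCL10 (1.38), IFIT3 (1.11), TNFSF10 (1.10), XAF1 (1.08), LMO4 (0.78), TRIM21 (0.66), RNF213 (0.66), MLKL (0.66), IL10RB (0.56), ICMT (0.44), ATL3 (0.44), LRRC8D (0.43) and IFIH1 (0.35). It was smaller in shMLKL for the genes most like GBP1 and GBP3, CXCL1 (−2.18), EGR1 (−1.89), CXCL2 (−1.49), BTG2 (−1.21), MAP2K3 (−0.65) and SMAD3 (−0.56), and for SRF (−0.83), one of those most like GBP2. These 7 were chosen for following a GBP whose effect was smaller in shMLKL over the same libraries, so their direction is a description of that choice. It was also smaller for SOCS3 (−1.64), CD274 (−1.27), ISG20 (−1.18), PIM1 (−1.01), SQSTM1 (−0.63), SAMD9 (−0.60), LRRC8B (−0.40), RELA (−0.40), IFNGR2 (−0.35), IFNGR1 (−0.34) and RABGGTB (−0.34). The calls of 5 of the 31 were lost under at least 1 alternative. That of RELA was lost under 7 of 15 alternatives, values −0.50 to −0.30, adjusted p from 0.0131 to 0.0877. That of CD274 was lost under 1 of 15 alternatives, values −1.96 to −0.95, adjusted p from 0.00139 to 0.0587. That of IFIH1 was lost under 9 of 15 alternatives, values 0.25 to 0.45, adjusted p from 0.00658 to 0.0926. That of LRRC8D was lost under 4 of 15 alternatives, values 0.34 to 0.49, adjusted p from 0.0139 to 0.0604. That of MLKL was lost under 2 of 14 alternatives, values 0.54 to 0.79, adjusted p from 0.00881 to 0.0905. The fit without shGFP DMSO replicate 1 lost the calls of RELA, CD274, LRRC8D and MLKL.

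Outside the genes of the report, the transcript list of shMLKL cells after 12 h of TBZ holds assembled transcripts that share an exon with the pseudogene GBP1P1 at the end of the cluster, with a summed level of 6.09 FPKM. No such assembled transcript is listed in the other 3 single libraries. The RefSeq transcript of GBP1P1 was at 0.137 FPKM (0.00746 to 0.267) in parental cells after 4 h of TBZ and at 0.0239 FPKM in shMLKL DMSO. It was listed at 0 in parental DMSO and in the 12 h library.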

How the results depend on the processing

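The TBZ differences of GBP1 to GBP4 kept their direction in both lines under 16 alternatives (15 for GBP4, which has no value with a filter at 5 FPKM). Left-out libraries moved them between 3.90 and 4.06 for GBP1, 1.38 and 1.58 for GBP2, 2.06 and 2.09 for GBP3 and 1.39 and 1.50 for GBP4 in shGFP. With library medians set equal they were 4.05, 1.54, 2.14 and 1.51 in shGFP and 2.49, 0.82, 1.33 and 1.77 in shMLKL. The difference between the treated lines for GBP4, −0.07, became 0.0036 with library medians set equal and 0.014 with quantile normalization. Leaving out 1 library gave 4589 to 5833 called genes for TBZ in shGFP (5844 with all), 2845 to 3686 in shMLKL (3891), 1327 to 1683 for the difference of effects (2306), 5507 to 6561 for the lines under DMSO (6539), 4198 to 5263 for the lines under TBZ (5360), and 78 to 95 (93) and 79 to 86 (86) list genes in shGFP and shMLKL. The count for the difference of effects moved by more than 1.5 times without shGFP DMSO replicate 1 (1327) or 2 (1474), shGFP TBZ replicate 1 (1466) or 2 (1430), or shMLKL DMSO replicate 2 (1489). Fewer samples enter each of these fits. With library medians set equal, the share of calls that were higher moved from 65.6 to 38.9% for the difference of effects, from 29.04 to 53.1% for the lines under DMSO and from 40.0 to 54.6% for the lines under TBZ, and with quantile normalization to 50.8, 47.5 and 52.1%. Libraries with the same replicate number showed little shared deviation from their group means: correlations of deviations lay between −0.07 and 0.03. What the number marks is not given, so whether samples were handled in pairs is not known. With the replicate number as a block 5711 and 3714 genes were called for TBZ in shGFP and shMLKL, 2062 for the difference, 6450 and 5222 for the lines, and 91 and 86 list genes. With 2 libraries a group the precision is low, and values without counts give no detection limit.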
